A study of Bos taurus with 16 samples.

Results

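The proteasome genes of bovine oocytes and embryos were followed from the mature oocyte to the blastocyst. Loci were taken by name: every locus whose gene name began with PSMA, PSMB, PSMC, PSMD, PSME, PSMF or PSMG followed by a digit was a member, which gave 52 of the 27393 loci and 49 gene names. The members were placed by role as 8 loci of the alpha ring, 7 of the constitutive beta ring, 4 of the immune and thymic beta subunits, 6 of the base ATPases, 12 of the other 19S subunits, 4 of the chaperones of the 19S base, 5 of the activators and the inhibitor, and 4 of the chaperones of the 20S core. The remaining 2 loci were named PSMC3IP, a recombination factor of meiosis that is no part of the proteasome and was kept because the rule took it.

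The proteasome is the protease that degrades most proteins marked with ubiquitin. Its core, the 20S particle, is a barrel with outer rings of alpha subunits, which gate the entrance, and inner rings of beta subunits, some of which cut the substrate. The 19S particle caps the barrel and binds, unfolds and deubiquitinates substrates, and in early embryos the system takes part in removing proteins stored in the oocyte.

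RNA-Seq was done on amplified RNA of in vivo material, each library holding a single oocyte or embryo, with 2 samples at each of 8 stages: mature oocytes (MII), 2-, 4-, 8- and 16-cell embryos (2C, 4C, 8C and 16C), early morulae (EM), compact morulae (CM) and blastocysts (BL). No treatment or genotype distinguished the groups. The labels do not say whether the samples of a stage came from different animals, so p-values measure the spread between these samples. Embryonic genome activation (EGA) of in vivo embryos lies between 4C and 8C, and the 6 samples of MII, 2C and 4C were therefore compared with the 10 samples from 8C on.

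Levels are given as normalised read counts, which are read counts divided by a size factor of the sample and not by transcript length, so that a level is compared between samples, and the reads of different genes are not read as relative amounts of their transcripts. Recovered reads ranged from 607672 to 3379426 per sample with a median of 1347534, and 3 reads, the smallest number taken as detected, corresponded to 1.09 to 5.40 normalised reads. The RNA was amplified and no molecular tags were used, so floors and bounds allow for counting error alone. Each value is relative to the other RNA of the same embryo, so a smaller share of a transcript and a larger amount of other RNA, or fewer cells of a type and less RNA per cell, cannot be told apart.

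Some libraries stood apart from their labels. Summed oocyte markers (10 of 11 found, BMP15 at 0 in every sample) ranged from 4278 to 25861 normalised reads before EGA, and from 6.09 to 64.3 after it in all samples but 8C replicate 2, which had 1845. The 8C replicates correlated at 0.74 over 10713 loci, below the 0.855 to 0.925 of the other replicate pairs. In the blastocysts KRT8 reached 543 in both samples and KRT18 401 and 396, whereas CDX2, a defining trophectoderm marker, was at 0 in both. CDX2 had reads only in 8C replicate 1 (1.80) of the whole series, so its zeros are not read as a trait of the blastocysts. Cumulus and granulosa markers (12 found, INHA, AMH and FOXL2 at 0) summed to 114 to 407 before EGA and 9.77 to 132 after it, and leukocyte markers to at most 12.6 in any sample. Most of the cumulus and granulosa sum before EGA was HAS2, with 98.1 to 367. In the same samples PTX3 had at most 3.17 and TNFAIP6 0, so the sum is not read as a sign of cumulus cells. The part of these differences in the results was not tested.

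Reads were present in every sample at 32 members, and 3 members had none in any sample: PSMB1, a beta subunit, PSMD13, a lid subunit, and 1 of the 2 PSMC3IP loci. PSMB1 and PSMD13 lie in a run of 2578 consecutive locus identifiers that are all at 0, and their zeros are not read as absence of the transcripts. Those 3 and another 6, 9 in all, had 20 reads or fewer over all samples. A filter on low reads left 43 members in the model of 8 stages and 38 in the comparison across EGA, and 14 members had no test across EGA. The filter across EGA asked for a CPM of 7.42, or 10 reads in a library of median size, in 6 samples of any stage. Of the members that rose (below), 24 of 25 did not reach this in all 6 samples before EGA and needed later samples to pass, and PSMC6 was the exception, while all 4 that fell reached it before EGA. Counts and medians over the members tested are therefore descriptions and support nothing beyond themselves.

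Of the 43 members tested by limma, 29 had a stage effect, where 66.7% of all loci tested had one. Over all members with reads, tested or not, the stage with the highest mean was BL for 13, 8C for 10, MII and EM for 7 each, CM for 5, 16C for 4, 4C for 2 and 2C for 1. These counts include members near the floor. The 2C member was PSMB11, with 13 reads in all, and 1 of the 4C members was PSMB8, with 8. No shares over all loci were made for the stage of the highest mean, so the counts are descriptions only. Across EGA, 25 of 38 members rose and 4 fell, where 36.9% of all 6910 loci rose and 29.9% fell. The counts by role below stand beside these same shares, and each rests on few loci. Every sample after EGA was above every sample before it for 11 members and below it for 0, where the shares of all loci were 16.0% and 14.1%. The median log2 change was 2.27 for the 38 members and 0.23 for all loci tested, and the former is the same with PSMA1 and PSMD3 XLOC_028007, which had no reads before EGA, at their bounds given below.

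**Figure D1:**
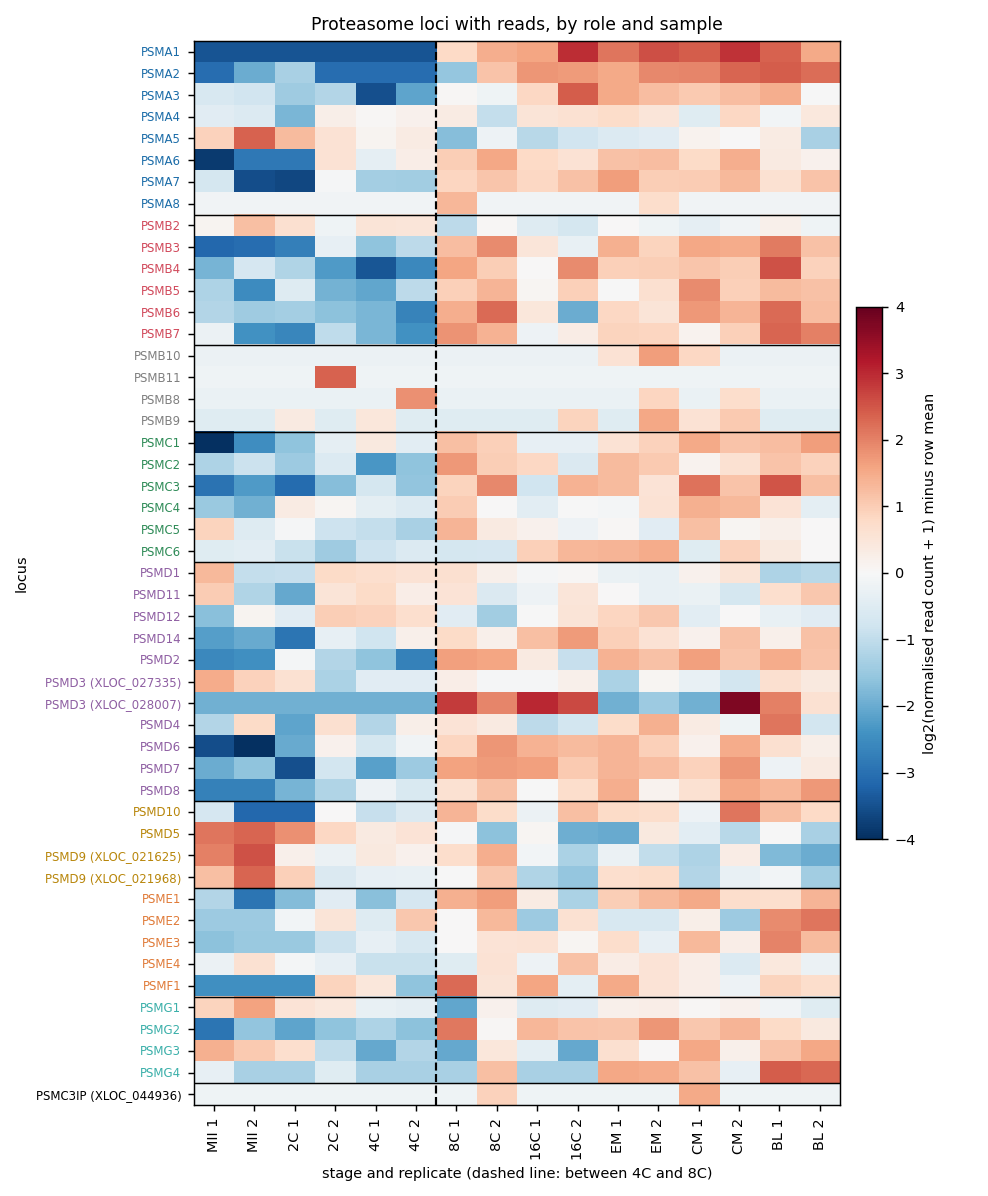
Normalised read counts of the 49 proteasome loci with reads (vertical axis, coloured by role) in the 16 samples (horizontal axis, by stage and replicate), as log2(value + 1) minus the mean of the locus. PSMA1 at the top was at 0 in all 6 samples left of the dashed line and had reads in all 10 to its right, whereas PSMD5 and both PSMD9 loci were highest at MII.

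In the alpha ring, 5 of 7 members tested across EGA rose (36.9% of all loci), 1 fell (29.9% of all loci) and 1 passed in neither direction. PSMA1 (XLOC_016971) had 0 reads in each of the 6 samples before EGA. At 8C it had 18.0 and 28.7 normalised reads, at 16C 31.6 and 84.1, at EM 47.1 and 63.7, at CM 57.6 and 79.7, and at BL 54.8 and 30.1. It was thus the 1 member that changed from no reads in any sample to reads in every sample, with 550 reads after EGA, or a CPM at least 211-fold higher against a floor of 3 reads over the samples before EGA.

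PSMA2 had 0 reads in 4 of the samples before EGA and 1.06 and 2.37 in MII replicate 2 and 2C replicate 1. Its 8C replicates had 1.80 and 17.2, and the 8 later samples 22.4 to 43.6. Of the samples after EGA, only 8C replicate 1 lay within the range before it. PSMA2 reached the minimum of the filter in none of the samples before EGA, and its fitted log2 change of 4.12 ± 0.54 (SE; limma, adjusted p = 9.64e-07) was 2.42 at a pseudocount of 5. PSMA7 had a lowest, median and highest value of 3.96, 22.9 and 58.4 before EGA and of 93.3, 127 and 194 after it (log2 change 2.85 ± 0.46, adjusted p = 1.39e-05), and PSMA3 of 0.922, 7.94 and 12.9 before and 18.4, 47.0 and 116 after (2.56 ± 0.48, adjusted p = 7.66e-05). Neither gene had overlapping samples.

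PSMA6 had 2.77 and 6.38 normalised reads at MII, 6.33 and 78.8 at 2C, 40.6 and 62.5 at 4C and 104 and 155 at 8C. The 2C replicates differed, replicate 1 lying at the MII values and replicate 2 above both 4C samples, and in all transcripts 2C replicate 1 correlated best with MII replicate 2 (0.87) and 2C replicate 2 with 4C replicate 2 (0.923). PSMA6 rose from MII to 4C by 3.28 ± 0.82 and across EGA by 2.41 ± 0.55 on the log2 scale (limma, adjusted p = 0.0251 and 0.000675).

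PSMA5 was the alpha subunit with the opposite direction. It had 138 and 370 normalised reads at MII, 174 and 107 at 2C, 78.4 and 91.0 at 4C and 21.6 and 61.9 at 8C, and between 28.5 and 91.3 in later samples. Of the samples after EGA, 8 of 10 were below all before it, and the log2 change was -1.49 ± 0.39 (limma, adjusted p = 0.00202). PSMA4 had medians of 41.5 before and 64.5 after EGA, and its log2 change of 0.64 ± 0.37 did not pass (adjusted p = 0.138). PSMA8, the alpha subunit of the testis, had 3 reads in all.

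Among the constitutive beta subunits, 5 of 6 members tested rose and 1 fell, beside 36.9% and 29.9% of all loci. PSMB5, PSMB6 and PSMB7 carry the catalytic sites, with chymotrypsin-like, caspase-like and trypsin-like activity. PSMB5 had 3.19, 7.35 and 15.8 as its lowest, median and highest value before EGA and 22.4, 45.2 and 87.5 after it, with no overlap and a log2 change of 2.46 ± 0.39 (limma, adjusted p = 1.24e-05). PSMB7 had 33.2 and 6.38 at MII and 10.1 and 6.5 at 4C, then 137 and 104 at 8C, 33.7 and 48.5 at 16C and 201 and 162 at BL. Its samples after EGA were all above those before, but 16C replicate 1 was close to the higher oocyte, and the log2 change was 2.81 ± 0.45 (adjusted p = 1.36e-05).

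PSMB6 ranged from 1.62 to 6.46 before EGA and from 21.8 to 79.1 after it except in 16C replicate 2, which had 3.23. The log2 change with that sample was 2.69 ± 0.53 (adjusted p = 0.000132). The structural subunits PSMB4 and PSMB3 had medians of 3.95 and 3.10 before EGA and of 39.4 and 42.2 after it. Neither overlapped between the periods, and they rose by 3.19 ± 0.44 and 3.18 ± 0.48 on the log2 scale (adjusted p = 2.15e-06 and 6.37e-06). For PSMB3 the separation was a near tie, with 12.8 in 2C replicate 2 and 12.9 in 16C replicate 2.

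PSMB2 was the exception in the beta ring. Its lowest, median and highest values were 53.3, 86.1 and 140 before EGA and 28.8, 53.7 and 70.0 after it. The periods overlapped, with 4 of 10 samples after EGA below all before it, and the log2 change of -0.74 ± 0.31 (limma, adjusted p = 0.0379) lost its call in 10 of 26 alternative settings.

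The immune and thymic beta subunits replace catalytic subunits in cells exposed to interferon and in the thymic cortex. None of the 4 reached the filter. PSMB8 had 8 reads in all, PSMB9 14 and PSMB10 9, with the reads of PSMB10 only in 3 morula samples. PSMB11, the thymic subunit, had 13 reads, all in 2C replicate 2. All 4 were at 0 in both blastocysts, and levels under the floor of each sample were not detectable at this depth.

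**Figure D2:**
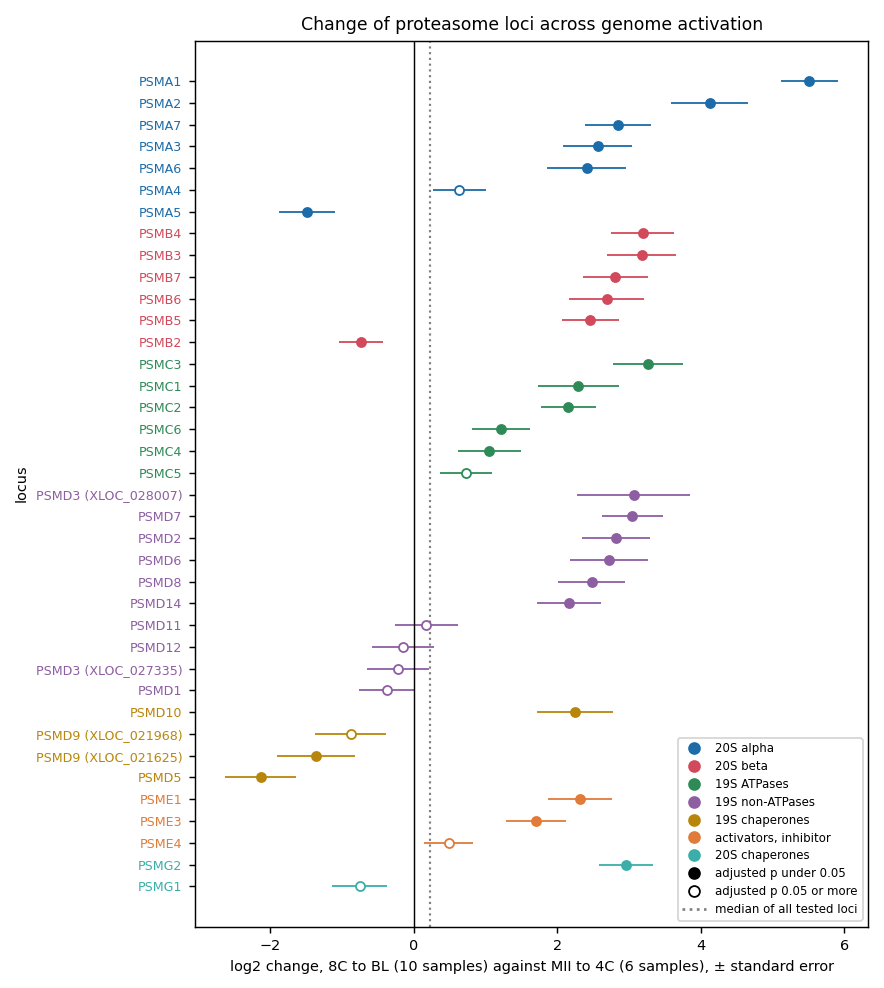
The log2 change of each of the 38 proteasome loci tested (points, with standard errors) between the 10 samples from 8C to BL and the 6 samples from MII to 4C, grouped by role and filled where the adjusted p was under 0.05. The places of PSMA1 and PSMD3 XLOC_028007, without reads before EGA, depend on the pseudocount, and the filled points left of 0 are PSMA5, PSMB2, PSMD5 and the PSMD9 locus XLOC_021625.

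The base of the 19S particle holds a ring of ATPases that unfold the substrate, and 5 of the 6 rose across EGA, beside 36.9% of all loci. The sixth, PSMC5, had a positive log2 change that did not pass. PSMC3 had a lowest, median and highest value of 0.791, 2.89 and 8.30 before EGA and 7.62, 34.0 and 85.2 after it. One sample, 16C replicate 1, lay below the highest sample before EGA, and the log2 change was 3.27 ± 0.49 (adjusted p = 6.1e-06). PSMC2 rose by 2.16 ± 0.38 (adjusted p = 4e-05) from a median of 12.0 to 63.0, with 9 of 10 samples above all before.

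PSMC1 had 0 and 2.13 normalised reads at MII, 4.75 and 12.8 at 2C, 22.1 and 12.2 at 4C and 39.6 and 33.3 at 8C. It then had 13.1 and 12.9 at 16C, within the range of the samples before EGA, and 40.6 and 55.5 at BL. Its change was 3.30 ± 0.70 from MII to 4C and 2.29 ± 0.56 across EGA on the log2 scale (limma, adjusted p = 0.0137 and 0.00118).

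PSMC6 did not move at the 8C step: it had 16.6 and 20.3 at 4C and 18.0 and 18.4 at 8C, and then 58.8 and 77.6 at 16C. Its log2 change across EGA was 1.22 ± 0.41 (adjusted p = 0.0128), and that from 4C to 8C was -0.01 ± 0.58 (adjusted p = 0.999). PSMC4 rose by 1.05 ± 0.44 (adjusted p = 0.0391), a call lost in 11 of 26 alternative settings. PSMC5 had 318 and 121 at MII, 88.6 and 69.8 at 4C and 445 and 219 at 8C, and rose from 4C to 8C by 1.98 ± 0.60 (adjusted p = 0.0181), while its change across EGA of 0.73 ± 0.36 did not pass (adjusted p = 0.0809).

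Of the other 19S subunits, 6 of 10 tested rose across EGA, beside 36.9% of all loci. All 6 needed samples after EGA to pass the filter, and PSMD3 XLOC_028007 had no reads before EGA. PSMD7 and PSMD14 form the deubiquitinating pair of the lid, in which PSMD14 carries the enzyme activity. PSMD7 had 6.46 and 8.51 at MII and 5.53 and 9.75 at 4C, then 88.3 and 95.2 at 8C, 90.4 and 59.8 at 16C, and 24.3 and 36.4 at BL. All its samples after EGA were above those before, those of the blastocyst being the lowest after EGA, and the log2 change was 3.05 ± 0.42 (limma, adjusted p = 1.98e-06). PSMD14 had 4.62 and 5.32 at MII, 13.8 and 28.4 at 4C and 43.2 and 28.7 at 8C, and rose by 2.16 ± 0.45 across EGA (adjusted p = 0.000245) with 8 of 10 samples above all before.

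PSMD2, a scaffold of the base that binds ubiquitin receptors, had a median of 3.37 before and 40.6 after EGA and rose by 2.82 ± 0.47 on the log2 scale (adjusted p = 2.36e-05). Its other scaffold partner, PSMD1, had medians of 190 and 123 and did not pass (log2 change -0.37 ± 0.40, adjusted p = 0.415). PSMD6 and PSMD8, lid subunits, had no overlap between the periods, although PSMD6 nearly tied, with 36.49 in 2C replicate 2 and 36.57 in CM replicate 1. PSMD6 had 1.85 and 1.06 at MII, 7.12 and 36.5 at 2C, 19.4 and 29.2 at 4C and 59.5 and 112 at 8C, and rose by 3.36 ± 0.72 from MII to 4C and by 2.72 ± 0.55 across EGA (adjusted p = 0.0140 and 0.000179). PSMD8 rose by 2.48 ± 0.46 (adjusted p = 7.98e-05), from at most 4.61 before to at least 5.44 after EGA. Both of these values were 5 reads, in 4C replicate 1 and 16C replicate 1.

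PSMD3, another lid subunit, has 2 loci that moved differently. XLOC_028007 had 0 reads in all 6 samples before EGA, and after it 25.2 and 13.8 at 8C, 29.4 and 22.6 at 16C, 0 and 0.391 at EM, 0 and 48.8 at CM and 14.2 and 4.75 at BL. The reads were thus spread unevenly over the replicates, and the pooled CPM after EGA was at least 52.5-fold higher than the floor of 3 reads over the samples before it. XLOC_027335 had 6.93 to 51.7 before and 6.96 to 28.4 after EGA (log2 change -0.23 ± 0.43, adjusted p = 0.657). With both loci summed the change was 0.53 and did not pass (adjusted p = 0.342), so the rise counted for XLOC_028007 is that of 1 locus and not of the gene. On leaving out either 8C or 16C sample, CM replicate 2 or BL replicate 1, XLOC_028007 no longer passed the filter on reads and had no test. XLOC_028007 stands between loci named ORMDL3 and MED24 in identifier order and XLOC_027335 between GSDMA and CSF3, and as the strand of the counting is not given, reads of overlapping transcripts could not be told apart.

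PSMD11 and PSMD12 did not pass across EGA (log2 changes 0.18 ± 0.44 and -0.15 ± 0.44, adjusted p = 0.735 and 0.777). PSMD12 had 95.0 and 79.6 at 4C and 36.0 and 18.4 at 8C, a difference of -1.72 ± 0.66 with an adjusted p of 0.0529. PSMD4, a ubiquitin receptor, had at most 18.3 normalised reads in any sample and no test across EGA.

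The chaperones of the 19S base, which hold ATPases during assembly and leave the finished particle, were divided. PSMD10 had 0 to 8.03 before EGA and 6.53 to 38.5 after it and rose by 2.25 ± 0.53 on the log2 scale (limma, adjusted p = 0.000802). PSMD5 had 44.3 and 49.99 at MII, 35.6 and 17.2 at 2C, 12.0 and 13.8 at 4C, and between 1.55 and 12.5 in the samples after EGA. All but 1 of those 10 lay below every sample before EGA, and the log2 change was -2.13 ± 0.49 (adjusted p = 0.000659).

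PSMD9 held more reads than all other members together in every sample before EGA. Its locus XLOC_021625 had 6916 and 9911 normalised reads at MII, 1940 and 1443 at 2C, 2244 and 1899 at 4C, 2771 and 4633 at 8C, 1587 and 712 at 16C, 1447 and 856 at EM, 716 and 2081 at CM and 493 and 431 at BL. The oocytes were the highest and the blastocysts the lowest, and both 8C samples lay above every sample of the other stages but MII. The higher 8C value is that of replicate 2, the library with oocyte markers, and in CPM the summed PSMD9 loci of that library, at 4006, lay above MII replicate 1, at 3396. Counted as reads, without division by length, both PSMD9 loci took 82.5% and 88.6% of the reads of all members at MII and 19.3% and 18.98% at BL.

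XLOC_021625 fell across EGA, with a log2 change of -1.36 ± 0.55 (limma, adjusted p = 0.0325) and the call lost in 8 of 26 alternative settings, and from 8C to BL, with a log2 change of -2.96 ± 0.63 (adjusted p = 0.0088). The second locus, XLOC_021968, had 158 and 352 at MII and 62.9 and 25.4 at BL, and its change across EGA of -0.88 ± 0.50 did not pass (adjusted p = 0.123). Both loci follow a locus named WDR66 in identifier order, with 5 and 7 reads, so they may be strands of 1 place, and how reads were divided between them could not be settled here.

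Of the activators, which open the core without ubiquitin, PSME1 and PSME3 rose. PSME1, a subunit of the interferon-inducible activator, had 23.9998 and 6.38 at MII, 16.6 and 34.1 at 4C, 151 and 180 at 8C, 69.7 and 22.6 at 16C and 88.3 and 143 at BL. All samples after EGA but 16C replicate 2 were above those before, and the log2 change was 2.31 ± 0.44 (limma, adjusted p = 0.000105). PSME2, its partner in the same ring, had 46 reads in all, with 9.13 and 11.1 normalised reads at BL and at most 5.73 in any other sample, and no test across EGA.

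PSME3, the nuclear activator, rose by 1.70 ± 0.42 on the log2 scale (adjusted p = 0.00112), and its mean was highest at BL (44.6 and 26.9). PSME4 had medians of 45.4 before and 67.8 after EGA and did not pass (log2 change 0.49 ± 0.34, adjusted p = 0.215). PSMF1, the inhibitor, had 0 and 0 at MII, 0 and 9.12 at 2C, 6.46 and 0.812 at 4C, and 3.23 to 25.2 after EGA, so that the periods overlapped, with no stage effect past the threshold (adjusted p = 0.0747). It missed the filter of the comparison across EGA, and in the 16 alternative settings in which it was tested it rose in all, by 2.04 ± 0.60 without a filter (adjusted p = 0.00925).

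The chaperones of the 20S core form alpha rings in pairs. PSMG2 had 2.77 to 11.1 before EGA and 28.7 to 121 after it, without overlap (log2 change 2.96 ± 0.37, adjusted p = 6.08e-07). PSMG1, the other subunit of its pair, had 120 and 197 at MII, 52.6 and 50.4 at 4C, 14.4 and 72.3 at 8C and 58.8 and 45.9 at BL, and its log2 change of -0.75 ± 0.39 did not pass (adjusted p = 0.0917). PSMG3 had 10.2 and 7.45 at MII, at most 0.812 at 4C and 8.12 and 11.1 at BL, and PSMG4 at most 0.923 before EGA and 12.2 and 11.1 at BL, and both had reads below the filter of the comparison across EGA. In the model of 8 stages and without a filter PSMG4 rose across EGA by 1.59 on the log2 scale (adjusted p = 0.00407 and 0.0459). PSMG4 had a stage effect (adjusted p = 0.0074), and PSMG3 did not pass (adjusted p = 0.0624).

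Summed over the members other than PSMD9, normalised reads were 1204 ± 206 before EGA (SD, n = 6) and 2139 ± 206 after it (n = 10), with a highest value of 1497 before and a lowest of 1727 after. In CPM of the recovered reads the sums were 790 ± 166 and 1987 ± 458. With PSMD9 included the order of the normalised sums was the opposite, 5396 ± 3757 before and 3778 ± 1417 after, although in CPM they were 3087 ± 1078 and 3402 ± 1099. A sum is led by its members with most reads, and these sums are given without a test.

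By role, the alpha ring summed to 212 ± 29.2 at 4C, 388 ± 69.5 at 8C and 541 ± 45.3 at EM (SD, n = 2). The constitutive beta ring had 112 ± 0.906 at 4C, 382 ± 37.8 at 8C, 193 ± 40.4 at 16C and 490 ± 153 at BL, so that both 16C embryos lay below both 8C embryos. The ATPases had 139 ± 18.6 at 4C and 537 ± 186 at 8C, and the activators with the inhibitor 68.7 ± 9.71 and 260 ± 44.2. The non-ATPase subunits had 461 ± 26.7 and 593 ± 69.1.

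**Figure D3:**
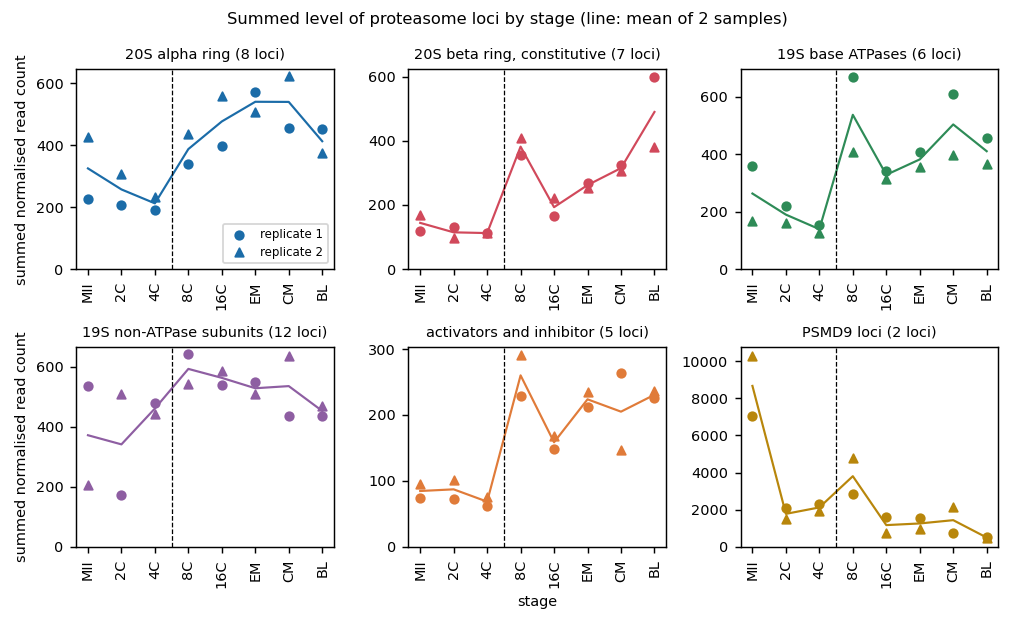
Summed normalised read counts (vertical axes, from 0, with a scale of its own in each panel) of 6 groups of proteasome loci by stage, with 1 point for each replicate and a line through the mean of 2. The alpha, beta and ATPase sums were higher at 8C than at 4C in both replicates, and the PSMD9 sum was highest at MII (8668 ± 2255) and lowest at BL (506 ± 70.4).

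Single steps were then compared in the model of 8 stages. These steps share the 4C and 8C samples with each other and with the comparison across EGA, so they are not separate evidence. From MII to 4C, before EGA, 3 of 43 members rose, where 6.48% of all loci did: PSMA6, PSMC1 and PSMD6, with the values given above. At MII these had few reads, 3 and 6 for PSMA6, 0 and 2 for PSMC1 and 2 and 1 for PSMD6. They passed the filter through other stages, and the size of their fitted change depends on the pseudocount. By limma and edgeR 0 fell (2.19% of all loci), while 8 had an unadjusted p under 0.05 in that direction and DESeq2 called 2, the PSMD9 loci, whose limma log2 changes were -2.003 ± 0.63 and -2.07 ± 0.66 (adjusted p = 0.0599 and 0.0637). Without 4C replicate 1 or 4C replicate 2 all 3 rises lost their calls, without MII replicate 1 only that of PSMD6 passed and without MII replicate 2 only that of PSMC1.

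From 4C to 8C, 16 of 43 members rose, where 17.7% of all loci did. They were 3 alpha subunits (PSMA1, PSMA2 and PSMA3), the 5 beta subunits that rose across EGA, 3 ATPases (PSMC2, PSMC3 and PSMC5), PSMD2, PSMD7, the PSMD3 locus XLOC_028007, PSME1 and PSMG2. PSMA1, PSMA2 and PSMD3 XLOC_028007 had 0 reads in both 4C samples, so they could pass the filter only through other stages and the size of their fitted change depends on the pseudocount. The same limits hold for further members with few reads at 4C, such as PSMB4 (1 and 3), PSMA3 (1 and 5) and PSMB6 (4 and 2). Among the members that rose and had reads at 4C, log2 changes ranged from 1.98 ± 0.60 for PSMC5 to 4.26 ± 0.78 for PSMB4 (limma, adjusted p = 0.0181 and 0.000918). Limma called 0 falls (19.1% of all loci), edgeR and DESeq2 called 0, and 1 member, PSMD12, had an unadjusted p under 0.05. Without 8C replicate 2, the embryo with oocyte transcripts, 14 rose and 1 fell (PSMG1), and without 4C replicate 1 the rises dropped to 8.

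From 8C to BL 0 of 43 members rose (6.44% of all loci) by limma, edgeR or DESeq2, with 3 at an unadjusted p under 0.05, and 1 fell (3.63% of all loci), PSMD9 XLOC_021625. The median log2 change of the members was 0.19, beside 0.13 for all loci. Without 8C replicate 2 the fall of PSMD9 lost its call and 2 members rose, PSMA2 and PSMG4, and without BL replicate 2 there was no call in either direction.

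**Figure D4:**
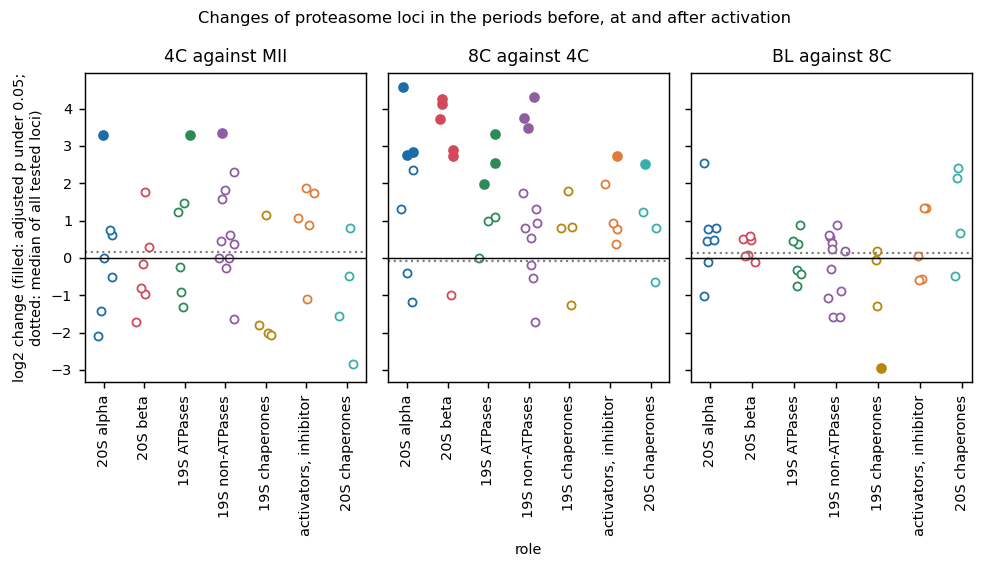
The log2 change of each of the 43 tested proteasome loci (points) by role in 3 steps, with filled points past an adjusted p of 0.05 and a dotted line at the median of all tested loci. Filled points number 3 from MII to 4C, 16 from 4C to 8C and 1, the PSMD9 locus XLOC_021625, from 8C to BL.

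**Figure D5:**
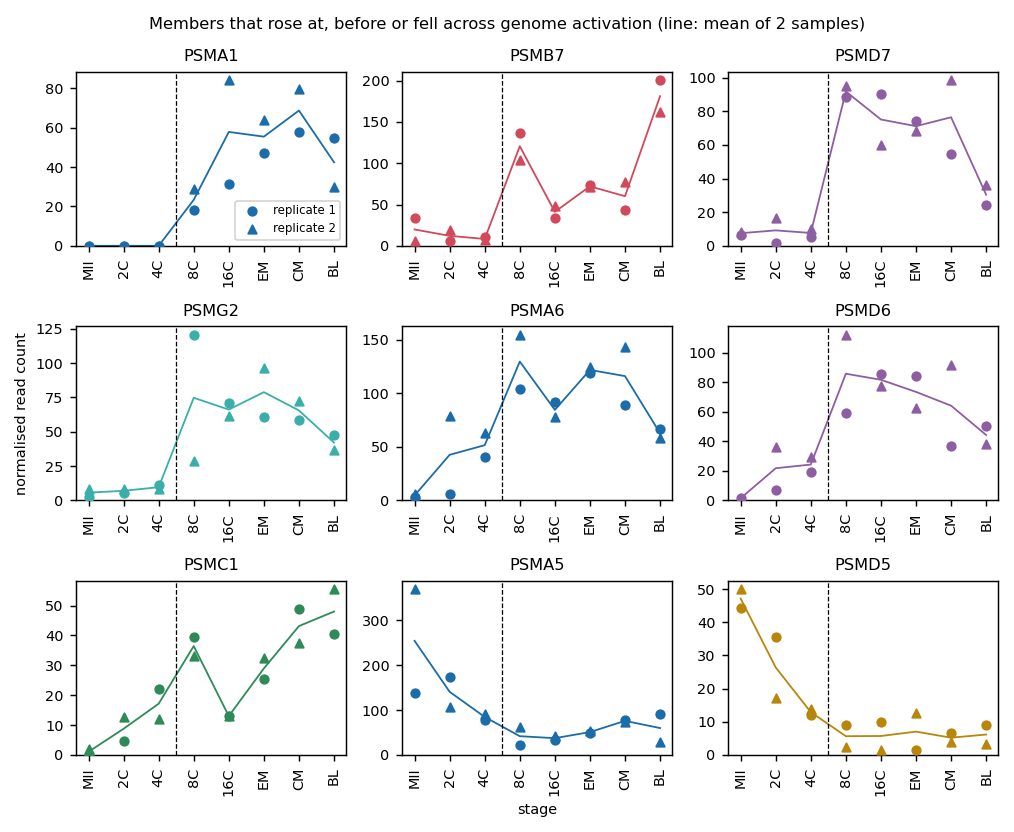
Normalised read counts (vertical axes, from 0) of 9 proteasome genes by stage, with 1 point per replicate, a line through the mean of 2 and a dashed line between 4C and 8C. PSMA1, PSMB7, PSMD7 and PSMG2 were low up to 4C, PSMA6, PSMD6 and PSMC1 were already above MII at 4C, and PSMA5 and PSMD5 were highest at MII.

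Genes that work with the proteasome but carry other names were looked up from lists of 14, 4 and 16 symbols, which gave 9, 4 and 16 loci. Of the 25 tested across EGA, 11 rose and 2 fell, beside 36.9% and 29.9% of all loci, and the median log2 change was 0.72, beside 0.23 for all loci. The counts by list below are read against the same shares, and nothing particular to these lists is drawn from them. Among other parts and chaperones of the proteasome 4 of 9 rose: SHFM1, a small lid subunit, by 2.502 ± 0.44, ADRM1, a ubiquitin receptor, by 1.78 ± 0.45, PAAF1, a base chaperone, by 1.43 ± 0.61 and TXNL1, a thioredoxin bound to the particle, by 0.72 ± 0.32 (limma, adjusted p = 4.06e-05, 0.00146, 0.0446 and 0.0488). AKIRIN2, which serves the import of proteasomes into the nucleus, had 328, 491 and 770 as its lowest, median and highest value before EGA and 36.4, 52.6 and 227 after it, and fell by 3.03 on the log2 scale (adjusted p = 3.99e-07). The highest of its samples after EGA was 8C replicate 2. POMP, the maturation factor of the core, had a log2 change of -0.01 ± 0.33 (adjusted p = 0.974).

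Of the 4 regulators of proteasome genes, NFE2L1, a transcription factor of proteasome genes, rose by 1.86 ± 0.42 and its relative NFE2L2 by 3.35 ± 0.58 (adjusted p = 0.000571 and 3.5e-05). NGLY1, the enzyme that removes glycans from NFE2L1, had 117 to 459 before EGA and 8.09 to 77.6 after it, without overlap, and fell by 3.22 (adjusted p = 1.98e-06). Of the 12 tested genes of ubiquitin, its activation and its shuttles, 5 rose, beside 36.9% of all loci. They were FAF2 (3.80 ± 0.43), VCP (3.04 ± 0.33), UFD1L (2.24 ± 0.50), RPS27A (2.10 ± 0.39) and FAF1 (1.23 ± 0.48), of which RPS27A encodes ubiquitin fused to a ribosomal protein and the others the segregase VCP and some of its cofactors. NPLOC4, the partner of UFD1L on VCP, has 2 loci that did not pass across EGA (log2 changes 0.71 ± 0.43 and 0.94 ± 0.59, adjusted p = 0.153 and 0.170) and rose from MII to 4C (2.37 ± 0.54 and 3.51 ± 0.79, adjusted p = 0.0174 and 0.0168). VCP had 14.9 to 51.4 before EGA and 175 to 508 after it.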

How the data were processed

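The values were deposited as a signal: reads of amplified RNA were trimmed, mapped and counted by the authors, and each library's counts were divided by its size factor. The submitters' processing notes name cutadapt, FastQC, TopHat, Cufflinks and HTSeq; the genome build, counting strand and rule for reads with several matches are not given in the sources used here. Values above 0 were whole multiples of 1 step per library in 100% of cases (tolerance 0.01), which gave back the whole reads. The test was limma 3.58.1 in R 4.3.3, run with a trend on log2(deposited value + 1), which understates changes of low loci, on loci kept by filterByExpr of edgeR 4.0.16 on the recovered reads (9670 for 8 stages, 6910 across EGA), with Benjamini-Hochberg adjustment at 0.05 over all loci. All 49 gene names were found in the RefSeq gene table (assembly ARS-UCD2.0). The members and lists were chosen with earlier results of these data known. In each role, members that passed across EGA were named, up to 6, with the one with most reads by mean CPM and all immune subunits, activators, PSMA8, PSMF1 and PSMC3IP; of other genes, up to 6 that passed per list; PSMA4, PSMC5, PSMD4, PSMD11, PSMD12, PSMG3, PSMG4, POMP, NPLOC4 and the PSMD3 and PSMD9 loci that did not pass were added after their values were seen. One gene of the pathway lists is not reported here. On simulated counts limma recovered 183 of 184 changed loci tested across EGA with 2 false calls among 7040 loci, and 92 of 200 from 4C to 8C with 3 among 8511. The changes planted were 8-fold up or down, in loci above a minimum mean of reads, with 1 spread for all loci. No other differences between stages were simulated. These rates therefore do not carry over to smaller changes, to members with few reads or to stages that differ within a period. Alternatives were TMM and total-read scaling, pseudocounts of 0.5 and 5, no filter, edgeR, DESeq2 1.42.0, the replicate number as a block, summed loci of 1 name, other sample sets and each sample left out. Sums and figures were made in Python 3.11.15 with pandas 2.3.3.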

Additional observations from a re-analysis of the deposited data

Results flagged for a closer look

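In the 10 samples after EGA, a single low sample of 5 members was separated from the others by a gap that was large for the range of the group. As a share of the range on the log2(value + 1) scale the gap was 0.676 for PSMA2 in 8C replicate 1 (1.80 normalised reads, the next sample 17.2), 0.572 for PSMB6 in 16C replicate 2 (3.23, next 21.8), 0.492 for PSMD2 in 16C replicate 2 (8.09, next 20.7), 0.538 for PSME1 in 16C replicate 2 (22.6, next 69.7) and 0.667 for PSMG1 in 8C replicate 1 (14.4, next 44.6). By chance about 1 in 20 groups has such a gap, or 3.7 of the 74 groups looked at, beside the 5 found. The cause was not tested.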

How the results depend on the processing

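With 2 samples a stage, single libraries decided several counts. Leaving out 1 sample at a time, members with a stage effect numbered 26 to 31, rises and falls across EGA 23 to 26 and 2 to 4 (2 without MII replicate 2, 16C replicate 2 or CM replicate 1), rises and falls from MII to 4C 0 to 3 and 0 to 3, from 4C to 8C 8 to 18 and 0 to 1, and from 8C to BL 0 to 2 and 0 to 1. Under the other settings falls across EGA were 2 with total-read scaling, which gave 28 rises, 2 without a filter and 6 in the model of 8 stages. Falls from MII to 4C were 1 at a pseudocount of 5, 2 with DESeq2 and 2 with only the 2 stages. Falls from 4C to 8C were 1 with TMM scaling and 1 at a pseudocount of 5, and rises from 8C to BL were 2 at a pseudocount of 5. The median change of all loci across EGA was 0.23, 0.19 with TMM and 0.66 with total-read scaling.

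The replicate number as a block gave 30 stage effects, 25 rises and 4 falls across EGA, 3 and 0 from MII to 4C, 16 and 0 from 4C to 8C and 0 and 1 from 8C to BL. Deviations of same-numbered samples correlated at -0.26 to 0.13 over 28 pairs of stages, so the numbers do not pair the samples.

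Of 980 values for single members, 931 kept their direction and side of the threshold, 29 lost a call (PSMB2, PSMC4 and PSMD9 XLOC_021625), 8 gained one and 12, none called, changed sign. The calls gained were 3 for PSMC5, 2 for PSMG1 and 1 each for PSMA4, PSME4 and PSMD9 XLOC_021968. The main comparison across EGA had no term for stage, so differences between stages of a period count as spread. In the model of 8 stages PSMC5 rose across EGA, and PSMG1 and PSMD9 XLOC_021968 fell. PSMC4 lost its call with TMM scaling (1.01), edgeR (0.87) and no filter (1.05), and PSMB2 and PSMD9 XLOC_021625 with total-read scaling (-0.26 and -0.88) and no filter (-0.74 and -1.36). On leaving out single samples the calls lost were PSMB2 without MII replicate 2, 2C replicate 1, either 4C, 8C replicate 1, either 16C or CM replicate 1, PSMC4 without either MII, 4C replicate 2, 8C replicate 1, EM replicate 2, either CM or BL replicate 1, and PSMD9 XLOC_021625 without either MII, 16C replicate 2, CM replicate 1 or either BL. The log2 change across EGA became 0.10 for PSMD1, 0.32 for PSMD12 and 0.24 for PSMD3 XLOC_027335 with total-read scaling, and 0.53 for the latter with summed loci. PSMD11 became -0.25 with edgeR and -0.057 with DESeq2. On leaving out 1 sample, PSMD11 ranged from -0.21 to 0.40 (below 0 without MII replicate 2 or 2C replicate 1), PSMD12 from -0.50 to 0.034 (above 0 without 2C replicate 2, 4C replicate 1 or 8C replicate 2) and PSMD3 XLOC_027335 from -0.51 to 0.041 (above 0 without MII replicate 1). The causes were not tested.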
